A study of Mus musculus with 6 samples.

Results

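Transcripts of 43 genes of the lysosome were followed in endothelial cells sorted from mouse liver after dietary iron loading. The genes were taken by name from an expression table of 39179 genes. They comprise 15 hydrolases, 7 proteins of the lysosomal membrane, 3 luminal proteins that are not hydrolases, 2 transcription factors of lysosomal genes, and 16 subunits or accessory proteins of the vacuolar proton pump (V-ATPase). All 43 names were found. The high-iron group received a purified diet with 10000 ppm carbonyl iron, and the control-iron group the same kind of diet with 37 ppm iron as ferric citrate. All mice were wild-type males of the strain 129S6/SvEvTac, put on the diets at 3 weeks of age and sampled 4 weeks later. Each group had 3 biological replicates, giving 6 libraries. The sort kept CD31+ CD146+ cells and removed cells with CD45, lineage markers, MHC class II or CD64.

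Lysosomes digest proteins, glycans and lipids that arrive by endocytosis, phagocytosis and autophagy. Their hydrolases work at acid pH, which the V-ATPase sets by pumping protons through a membrane sector (V0) with the energy of ATP split by a peripheral sector (V1). Heavily glycosylated membrane proteins such as LAMP1 and LAMP2 line the inner face of the membrane. TFEB and TFE3 bind E-box motifs in the promoters of many lysosomal genes and raise their transcription. Sinusoidal endothelial cells of the liver are known as scavenger cells that take up and degrade large amounts of circulating waste. Lysosomes also release iron from ferritin that is delivered to them.

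Promoter sequences of selected genes are shown to place the E-box, CACGTG, with its occurrences in capitals. Windows came from RefSeq on GRCm38.p6 and spanned 250 bases before to 50 bases after each annotated start, with 34 of the 43 genes matched by symbol. Ctsd and Hexa are shown as the genes that passed the test, Ctss for its large difference, Lamp1, Mcoln1 and Atp6v0b for repeated motifs, and Gla because it carries the motif and was lower. Each line gives the bases just before the RefSeq start, 250 for Ctsd and Gla and 120 for the others, written 5′ to 3′ on the gene's strand. The annotation GENCODE M21 begins some of these genes further upstream, so part of their stretch lies within the M21 gene. Their M21 starts are at 142388038 for Ctsd, 134601125 for Gla, 3500457 for Mcoln1 and 117887333 for Atp6v0b.
Ctsd, chr7:142387828-142388077, minus strand: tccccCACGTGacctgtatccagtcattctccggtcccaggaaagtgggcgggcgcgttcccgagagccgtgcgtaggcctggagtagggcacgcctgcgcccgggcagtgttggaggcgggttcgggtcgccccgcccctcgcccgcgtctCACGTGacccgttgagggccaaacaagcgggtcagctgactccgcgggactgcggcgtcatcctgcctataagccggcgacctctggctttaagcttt
Hexa, chr9:59539420-59539539, plus strand: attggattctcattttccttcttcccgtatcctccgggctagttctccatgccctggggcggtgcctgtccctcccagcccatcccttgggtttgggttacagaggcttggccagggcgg
Ctss, chr3:95526666-95526785, plus strand: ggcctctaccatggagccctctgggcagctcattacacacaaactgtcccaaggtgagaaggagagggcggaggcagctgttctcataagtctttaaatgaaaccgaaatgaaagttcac
Lamp1, chr8:13159041-13159160, plus strand: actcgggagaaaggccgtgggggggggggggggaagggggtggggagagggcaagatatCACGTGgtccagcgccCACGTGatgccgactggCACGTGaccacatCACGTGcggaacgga
Mcoln1, chr8:3500399-3500518, plus strand: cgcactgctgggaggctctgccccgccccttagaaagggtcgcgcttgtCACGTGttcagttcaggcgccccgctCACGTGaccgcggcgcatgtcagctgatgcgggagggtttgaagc
Atp6v0b, chr4:117887330-117887449, minus strand: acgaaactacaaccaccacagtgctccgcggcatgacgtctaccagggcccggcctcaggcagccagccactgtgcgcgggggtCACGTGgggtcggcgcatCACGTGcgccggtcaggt
Gla, chrX:134601006-134601255, minus strand: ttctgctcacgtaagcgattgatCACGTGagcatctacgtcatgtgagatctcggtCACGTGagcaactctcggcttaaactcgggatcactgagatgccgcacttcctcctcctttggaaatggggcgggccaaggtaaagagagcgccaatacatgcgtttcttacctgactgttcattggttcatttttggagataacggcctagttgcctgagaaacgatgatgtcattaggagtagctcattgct

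The E-box CACGTG, which reads the same on both strands, was found in the window of 12 of the 34 genes (35.3%), against 8.09% of the 27025 genes with a window of the same length. It was present for 6 of 12 hydrolases, 2 of 6 membrane proteins and 4 of 11 V-ATPase genes. The longer palindrome TCACGTGA, which contains it, was found for 7 of the 34 genes (20.6%), against 1.12% of all genes. The core of the motif bound by NRF2, TGACNNNGC on either strand, was found for 7 of the 34 genes (20.6%), against 14.0% of all genes. These 7 were Ctsd, Hexa, Ctsz, Psap, Scarb2, Atp6v0a1 and Atp6v1a. In Lamp1 the 4 E-boxes lay 61, 45, 28 and 15 bases before the RefSeq start, and in Ctsd they lay 245 and 98 bases before it. These are matches of letters and not measured binding sites.

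The libraries held 12963510 to 21663543 reads in genes. Levels are given as CPM, a gene's reads relative to a scaled library size, and 3 reads correspond to between 0.139 and 0.231 CPM. Pecam1, which encodes CD31, was at 634, 549 and 635 CPM in high-iron libraries and at 688, 634 and 737 CPM in control-iron libraries. Mcam, which encodes CD146, was low throughout, at 7.49 to 11.5 CPM in high-iron libraries and 10.9 to 27.5 CPM in control-iron libraries. The 14 endothelial markers summed to 28786 to 30689 CPM in high-iron libraries and 30853 to 31638 CPM in control-iron libraries. Markers of macrophages moved with the diet although the sort should remove these cells. The 18 macrophage markers summed to 556, 275 and 375 CPM in high-iron libraries and to 85.8, 191 and 104 CPM in control-iron libraries. Of 17 of them that were tested, 3 rose by limma at an adjusted p under 0.05 (Csf1r, Marco and Clec4f), where 0.832% of all genes tested did. DESeq2 called 13 of the 17 higher (2.53% of all genes) and edgeR 2 (0.763%), 16 were higher at an unadjusted p under 0.05 (7.3%), and 13 had no overlap between the groups (9.46%). None of the 18 was at 0 in any library. Ptprc (CD45) was at 4.13 to 7.597 CPM in high-iron libraries and 0.604 to 2.68 CPM in control-iron libraries, and Fcgr1 (CD64) was at most 2.16 CPM. The 13 other leukocyte markers summed to 925, 464 and 651 CPM in high-iron and to 302, 446 and 697 CPM in control-iron libraries, and 3 of 8 tested rose (H2-Aa, H2-Ab1 and Cd74). The 12 hepatocyte markers summed to 495, 892 and 697 CPM in high-iron and to 217, 799 and 475 CPM in control-iron libraries, and none rose by limma, edgeR called none, DESeq2 called 1 and 4 had an unadjusted p under 0.05. The 12 stellate cell markers summed to 711, 1757 and 1212 CPM in high-iron and to 395, 1557 and 822 CPM in control-iron libraries, and 1 of 11 tested, Hgf, rose. Macrophages are rich in lysosomes, and the part of these cells in the differences given below was not tested. In bulk RNA a change in the share of cells and a change in RNA per cell cannot be told apart.

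Most genes of each large class were higher in high-iron libraries, with smaller differences among the V-ATPase genes than among hydrolases and membrane proteins. A log2 fold change above 0 was found for 13 of 15 hydrolases, 6 of 6 membrane proteins and 12 of 15 V-ATPase genes, and for 49.5% of all genes tested. The difference between the classes was not tested. Of the 43 genes 41 were tested, and 2 of them, the hydrolases Ctsd and Hexa, rose at an adjusted p under 0.05; over all 12980 genes tested, 0.832% rose and 1.02% passed in either direction. Adjusted p-values come from limma on log2(CPM + 1), with Benjamini-Hochberg adjustment over all genes tested. The fold changes given here are differences of these log2 values and understate the change of low genes. No tested gene fell at this threshold, Gla having the lowest log2 fold change, while 0.193% of all genes tested fell. DESeq2, run on the recovered reads, called 9 of the 41 genes, all higher, against 2.53% of all genes called higher and 3.27% called in either direction. edgeR called Ctsd alone, against 0.763% of all genes called higher and 0.924% in either direction. An unadjusted limma p under 0.05 was found for 18 genes that were higher and 1 that was lower, compared with 7.3% and 4.82% of all genes tested. Each of the 41 genes was above 2 CPM in all 6 libraries, so none was tested on the strength of 1 group only.

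The high-iron libraries lay entirely above the control-iron libraries for 22 of the 41 tested genes, compared with 9.46% of all genes tested, and entirely below for 1 gene, compared with 8.44%. By class this was the case for 11 of 15 hydrolases, 4 of 6 membrane proteins, 2 of 3 other luminal proteins, 1 of 2 transcription factors and 4 of 15 V-ATPase genes. The median log2 fold change was 0.48 for the hydrolases, 0.44 for the membrane proteins and 0.11 for the V-ATPase genes. The same median over all genes tested was -0.003. With 1 library left out these medians ranged from 0.35 to 0.56 for the hydrolases, from 0.37 to 0.53 for the membrane proteins and from 0.07 to 0.20 for the V-ATPase genes. The genes were chosen with earlier results of these data known, so their counts describe the list and give no test of it.

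**Figure D1:**
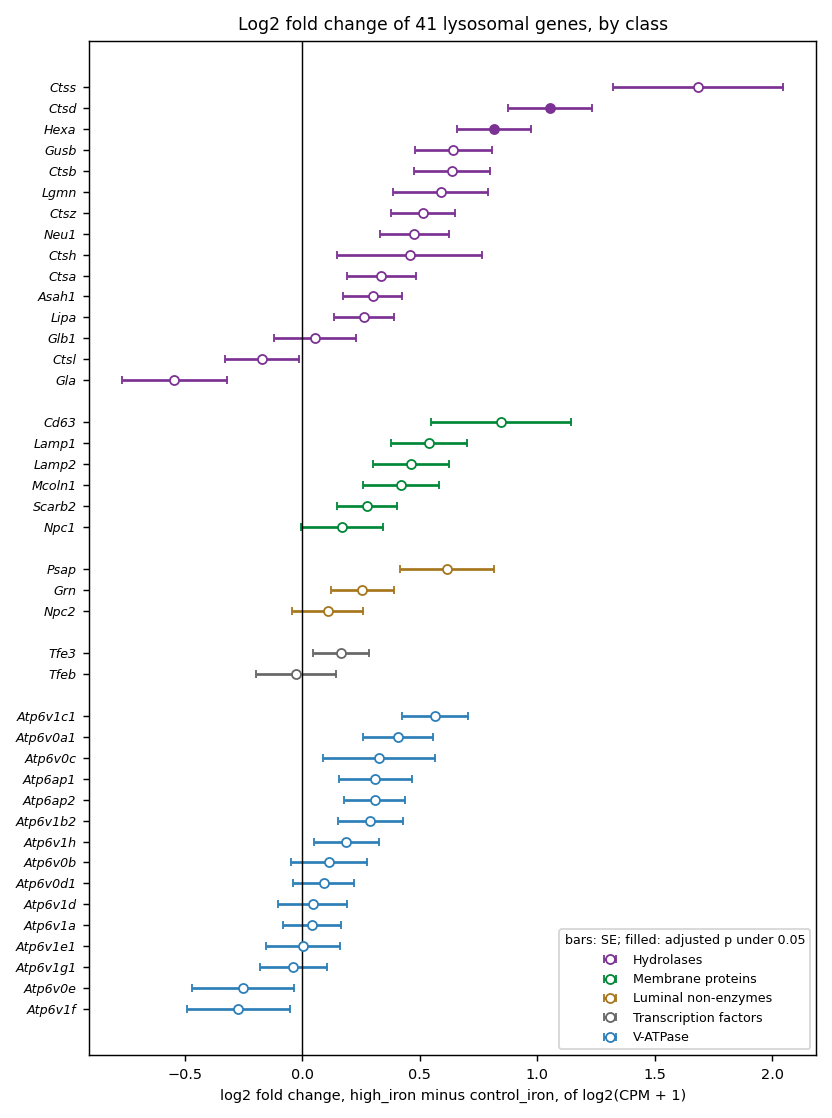
Log2 fold change (high_iron minus control_iron, on the log2(CPM + 1) scale) of the 41 tested genes by class, with bars for the standard error and filled points for an adjusted p under 0.05. Right of 0 lie 13 of 15 hydrolases, with Ctsd and Hexa filled, all 6 membrane proteins and 12 of 15 V-ATPase genes, the last with a median of 0.11.

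Summed over the 15 hydrolases, levels were 9811, 10008 and 10473 CPM in high-iron libraries and 6989, 7638 and 6374 CPM in control-iron libraries. The 7 membrane proteins summed to 4606, 4458 and 4813 CPM in high-iron libraries and to 3258, 3695 and 2985 CPM in control-iron libraries. The groups did not overlap in either sum. The 16 V-ATPase genes summed to 2769, 2432 and 2770 CPM in high-iron libraries and to 2233, 2524 and 2411 CPM in control-iron libraries, and here the groups overlapped. Within each library, the hydrolase sum was 3.54, 4.12 and 3.78 times the V-ATPase sum in high-iron libraries and 3.13, 3.03 and 2.64 times in control-iron libraries. The hydrolase sum relative to the membrane protein sum was close in both groups, at 2.18 ± 0.058 in high-iron and 2.12 ± 0.043 in control-iron libraries (SD, n = 3 each). The macrophage marker sum was highest in high-iron replicate 1, which had the lowest hydrolase sum of the high-iron libraries. Within the control-iron group, replicate 2 had the highest value of all 4 sums.

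**Figure D2:**
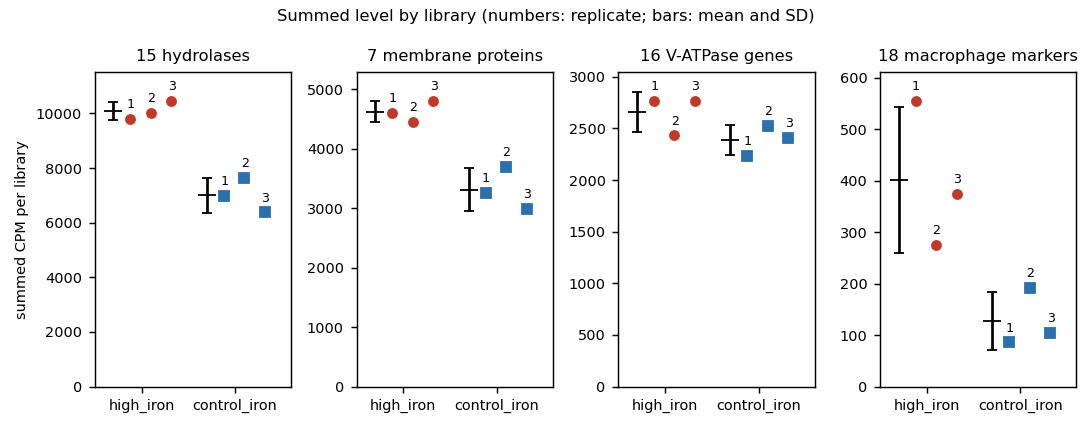
Summed CPM per library for the 15 hydrolases, 7 membrane proteins, 16 V-ATPase genes and, for comparison, 18 macrophage markers. Points are libraries with their replicate number, bars are the mean and SD of 3 libraries, and the y axes start at 0. Only the V-ATPase sums overlap between the groups, where control-iron replicate 2 at 2524 CPM exceeds high-iron replicate 2 at 2432 CPM.

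Among the hydrolases, Ctsd encodes cathepsin D, the main aspartic protease of lysosomes. It was at 2133, 2795 and 2876 CPM in high-iron libraries, against 1180, 1434 and 1129 CPM in control-iron libraries. Every high-iron library lay above every control-iron library, and the lowest high-iron value was that of replicate 1. On the log2 scale Ctsd rose by 1.05 ± 0.18 (SE, limma adjusted p = 0.032), and the call was lost without high-iron replicate 2 or 3 or control-iron replicate 3 (adjusted p of 0.13, 0.19 and 0.082). Ctsd lies on chromosome 7 from 142375911 to 142388038. In GENCODE M21, 34.4% of its exon length is shared with another protein-coding model of that strand, Gm49369. No gene of that name was listed in the expression table, which gives Ctsd 2509 bases against 2351 in M21. Whether reads of Ctsd were divided in counting was not tested. The macrophage marker Clec4f was at 115, 71.2 and 97.9 CPM in the same high-iron libraries and at 10.8, 39.9 and 14.2 CPM in the control-iron libraries. Ctsd and Clec4f were both higher in every high-iron library than in any control-iron library. Within the high-iron group Ctsd was lowest and Clec4f highest in replicate 1, and within the control-iron group both were highest in replicate 2.

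Hexa encodes the alpha subunit of beta-hexosaminidase, which removes hexosamine sugars from gangliosides. It was at 236, 303 and 317 CPM in high-iron libraries and at 166, 179 and 139 CPM in control-iron libraries. The groups did not overlap, and replicate 1 was again the lowest of the high-iron libraries. On the log2 scale Hexa rose by 0.81 ± 0.16 (SE, limma adjusted p = 0.046). The call held in 1 of 6 fits with a library left out, that without control-iron replicate 1, with adjusted p-values of 0.054, 0.19 and 0.255 without high-iron replicates 1, 2 and 3 and of 0.080 and 0.11 without control-iron replicates 2 and 3. Exons of Tmem202 on the opposite strand cover 12.8% of the exon length of Hexa, and Tmem202 was at no more than 0.565 CPM in any library.

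Ctss encodes cathepsin S, a cysteine protease best known from antigen-presenting cells. It was at 30.3, 10.4 and 12.5 CPM in high-iron libraries and at 3.07, 5.34 and 4.67 CPM in control-iron libraries. The groups did not overlap, and high-iron replicate 1 stood far above the other libraries. Lyz2, a lysozyme gene of macrophages that was picked after its values were seen, was also highest there. Lyz2 was at 60.7 CPM there, 18.04 and 30.1 CPM in the other high-iron libraries and 7.75 to 15.2 CPM in control-iron libraries. The macrophage marker Clec4f was highest in the same library by a smaller margin. Whether macrophages contributed to the Ctss difference was not tested. Ctss had the highest log2 fold change of the 41 genes, 1.68 ± 0.36 (± SE), and missed the threshold (adjusted p = 0.068; range 0.084 to 0.20 with 1 library left out). It passed with DESeq2 (adjusted p = 9.8e-05) and after a correction for gene length (adjusted p = 0.048).

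Ctsb, the cysteine protease cathepsin B, was at 2547, 2347 and 2521 CPM in high-iron libraries and at 1629, 1779 and 1384 CPM in control-iron libraries. Its groups were well apart, and the log2 fold change of 0.64 ± 0.16 missed the limma threshold (adjusted p = 0.12) and passed with DESeq2 (adjusted p = 8.7e-04). Exons of Fdft1 on the opposite strand cover 12.8% of its exon length. Lgmn, legumain, an asparaginyl endopeptidase that processes cathepsins, was at 2025, 1894 and 1910 CPM in high-iron libraries, against 1538, 1491 and 939 CPM in control-iron libraries. The control-iron group was spread by its replicate 3, and the log2 fold change of 0.59 ± 0.20 did not pass (adjusted p = 0.28). Ctsz, the carboxypeptidase cathepsin Z, was at 201, 203 and 236 CPM in high-iron libraries and at 132, 164 and 153 CPM in control-iron libraries (log2 fold change 0.51 ± 0.14, adjusted p = 0.14). Ctsa, the protective protein that holds beta-galactosidase and neuraminidase in a complex, was at 340, 315 and 313 CPM in high-iron and at 263, 296 and 214 CPM in control-iron libraries, a log2 fold change of 0.34 (adjusted p = 0.40).

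The remaining cathepsins did not separate the groups. Ctsl, cathepsin L, was at 1461, 1340 and 1396 CPM in high-iron libraries, against 1376, 1573 and 1804 CPM in control-iron libraries, with a log2 fold change of -0.17 ± 0.16 (adjusted p = 0.67). An antisense gene model covers 26.8% of the exon length of Ctsl. Ctsh, the aminopeptidase cathepsin H, was at 9.53 to 12.9 CPM in high-iron libraries and at 4.73 to 12.7 CPM in control-iron libraries. Per length, in RPKM, Ctsd was the most abundant hydrolase transcript in all high-iron libraries, at 850, 1114 and 1146 RPKM, while Ctsl was at 744, 682 and 711 RPKM. In control-iron libraries Ctsl was ahead, at 701, 801 and 919 RPKM, with Ctsd at 470, 572 and 450 RPKM. The order of these 2 transcripts was therefore reversed between the diets in every library by the deposited lengths, as it also was in CPM. The order per length depends on the annotation, since Ctsl has 1963 bases in the expression table and 6489 in M21.

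**Figure D3:**
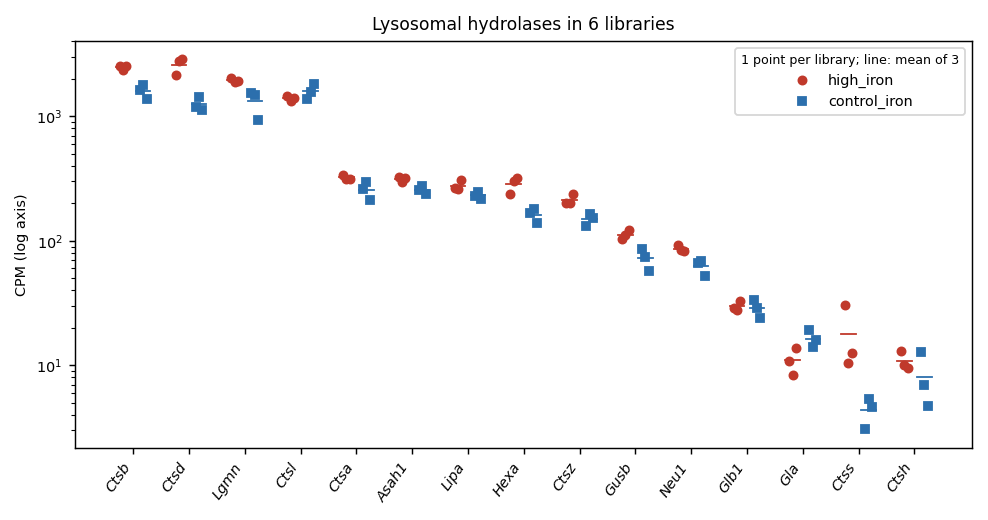
CPM (log axis) of the 15 hydrolase genes, ordered by mean level, with 1 point per library and a line at the mean of 3. For 11 genes all high-iron points lie above all control-iron points; Gla is the one gene with all high-iron points below, and Ctsl, Glb1 and Ctsh overlap.

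Glycosidases other than Hexa differed among themselves. Gusb, beta-glucuronidase, was at 104, 112 and 122 CPM in high-iron libraries and at 85.4, 74.7 and 57.2 CPM in control-iron libraries, with a log2 fold change of 0.64 ± 0.16 (adjusted p = 0.12; 0.049 without control-iron replicate 1). Neu1, the lysosomal sialidase, was at 91.8, 84.8 and 83.6 CPM in high-iron and at 66.2, 69.4 and 51.9 CPM in control-iron libraries, a log2 fold change of 0.48 ± 0.15 (adjusted p = 0.21). Glb1, beta-galactosidase, showed no separation, at 27.7 to 33.1 CPM in high-iron and 23.9 to 33.8 CPM in control-iron libraries. Gla, alpha-galactosidase A, went the other way, at 10.9, 8.31 and 13.8 CPM in high-iron libraries, against 19.1, 14.0 and 15.9 CPM in control-iron libraries. All high-iron values of Gla were below all control-iron values by a narrow margin, and its log2 fold change of -0.54 ± 0.22 did not pass (adjusted p = 0.37). Both lipid hydrolases were slightly higher without passing: Lipa, acid lipase, averaged 278 ± 25.8 CPM in high-iron and 231 ± 14.5 CPM in control-iron libraries, and Asah1, acid ceramidase, averaged 314 ± 15.7 and 256 ± 19.7 CPM in the high-iron and control-iron groups (SD, n = 3 each). Their log2 fold changes were 0.26 and 0.30, and neither gene's groups overlapped.

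The E-box in a promoter window did not go with a larger difference. The 12 tested genes with CACGTG had a median log2 fold change of 0.10, and the 21 tested genes whose window lacked it had a median of 0.31. Among hydrolases the medians were 0.19 for 6 genes with the motif and 0.58 for 6 genes without it. Ctsd and Gla, with 2 copies each, differed in the sign of the change, and Hexa and Ctss had no copy in the window. These medians are a description over few genes and were not tested.

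**Figure D4:**
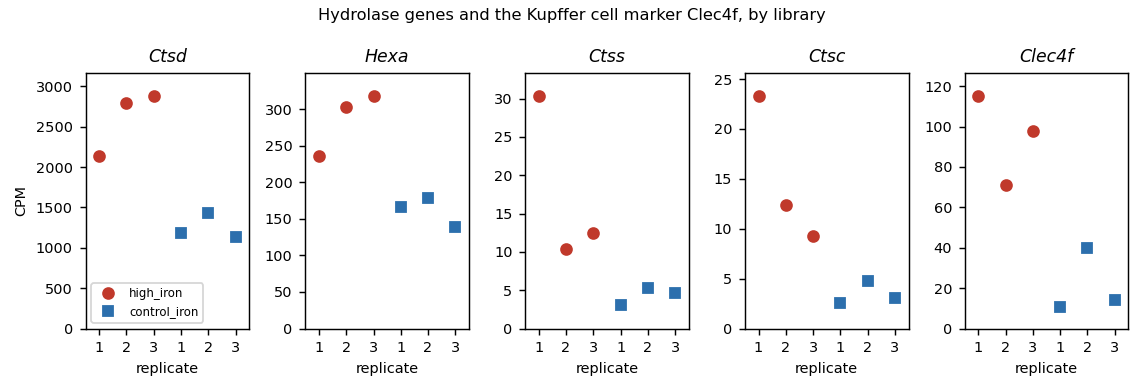
CPM of Ctsd, Hexa, Ctss, Ctsc and the Kupffer cell marker Clec4f in each library, on axes that start at 0, with high_iron left of control_iron. High-iron replicate 1 is the lowest of its group for Ctsd (2133 CPM) and Hexa (236 CPM) and the highest for Ctss (30.3 CPM), Ctsc (23.3 CPM) and Clec4f (115 CPM), while control-iron replicate 2 is the highest of its group for all 5 genes.

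Among the membrane proteins, Lamp1 and Lamp2, the most abundant glycoproteins of the lysosomal membrane, were separated between the groups. Lamp1 was at 1639, 1809 and 1996 CPM in high-iron libraries and at 1292, 1378 and 1083 CPM in control-iron libraries (log2 fold change 0.54 ± 0.16 SE, limma adjusted p = 0.20, DESeq2 adjusted p = 0.017). Lamp2 was at 2724, 2389 and 2553 CPM in high-iron libraries and at 1753, 2107 and 1715 CPM in control-iron libraries (0.46 ± 0.16, limma adjusted p = 0.29, DESeq2 adjusted p = 0.043). Both passed with DESeq2 and not with limma. Mcoln1, the cation channel TRPML1 that lets calcium and iron out of lysosomes, was at 85.2, 86.3 and 94.9 CPM in high-iron and at 74.8, 73.7 and 52.4 CPM in control-iron libraries. Its groups did not overlap, and the log2 fold change of 0.42 ± 0.16 did not pass (adjusted p = 0.35).

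Scarb2, the membrane protein LIMP-2 that carries beta-glucocerebrosidase to lysosomes, was at 118, 127 and 121 CPM in high-iron and at 109, 103 and 90.3 CPM in control-iron libraries (adjusted p = 0.43). Npc1, the membrane protein that exports cholesterol, was at 29.8 to 31.6 CPM in high-iron and 23.3 to 34.1 CPM in control-iron libraries, with overlap. Cd63, a tetraspanin of late endosomes and lysosomes, was at 8.47, 16.9 and 17.3 CPM in high-iron libraries and at 5.56, 6.69 and 9.62 CPM in control-iron libraries, a difference of 0.85 ± 0.30 on the log2 scale (adjusted p = 0.30). Its level is uncertain: 73.2% of its longest coding transcript matches the pseudogene Cd63-ps at 95% identity or more, and that pseudogene was listed at 8.06 to 14.1 CPM in high-iron and 4.94 to 9.85 CPM in control-iron libraries. Gpnmb, a transmembrane glycoprotein induced in macrophages under lysosomal stress, had no read in any of the 6 libraries, which allows a level of up to 0.139 to 0.231 CPM per library.

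The luminal proteins without hydrolase activity included Psap, prosaposin, the precursor of activator proteins for sphingolipid breakdown. Psap was at 1280, 1459 and 1592 CPM in high-iron libraries and at 1091, 1087 and 696 CPM in control-iron libraries, without overlap (log2 fold change 0.62 ± 0.20 SE, adjusted p = 0.24). Grn, progranulin, which is cleaved to granulins in lysosomes, was at 470, 474 and 550 CPM in high-iron and at 380, 417 and 454 CPM in control-iron libraries (0.26 ± 0.13, adjusted p = 0.48). Npc2, the soluble cholesterol carrier that works with NPC1, overlapped, at 252 to 312 CPM in high-iron and 219 to 296 CPM in control-iron libraries. None of these 3 genes passed by limma, edgeR or DESeq2, and 1 of them, Psap, had an unadjusted p under 0.05, as did 12.1% of all genes tested.

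The transcripts of the transcription factors were almost level. Tfeb was at 25.3, 23.5 and 24.7 CPM in high-iron libraries and at 29.6, 24.98 and 21.02 CPM in control-iron libraries, a log2 fold change of -0.03 ± 0.17 (SE, adjusted p = 0.96). Tfe3 was at 138, 142 and 137 CPM in high-iron and at 131, 115 and 125 CPM in control-iron libraries, a log2 fold change of 0.16 ± 0.12 (adjusted p = 0.60), with a narrow gap between the groups. Both factors are known to be controlled by phosphorylation and nuclear entry, which RNA levels do not show.

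Of the 16 V-ATPase genes 15 were tested, and none passed by limma (3 had an unadjusted p under 0.05) or by edgeR, while DESeq2 called Atp6v1c1. Over all genes tested, 12.1% had an unadjusted limma p under 0.05 and DESeq2 called 3.27%. Log2 fold changes ran from -0.27 for Atp6v1f to 0.57 for Atp6v1c1. In the V0 sector, Atp6v0a1, the a1 isoform of the subunit that anchors the stalk and forms part of the proton path, was at 219, 215 and 226 CPM in high-iron and at 204, 146 and 152 CPM in control-iron libraries (log2 fold change 0.41 ± 0.15 SE, adjusted p = 0.32). Atp6v0b, a subunit of the rotating ring, was at 254 to 310 CPM in high-iron and 212 to 301 CPM in control-iron libraries. Atp6v0d1, which couples the ring to the central stalk, was at 109 to 117 CPM in high-iron and 93.7 to 115 CPM in control-iron libraries. Atp6v0e was at 161 to 207 CPM in high-iron libraries and at 169, 216 and 317 CPM in control-iron libraries, where replicate 3 alone gave the highest value. The last 3 genes overlapped between the groups.

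A pair of V0 genes was listed at low levels. Atp6v0c, the main ring subunit, was listed at only 2.83 to 4.38 CPM in high-iron and 2.28 to 3.19 CPM in control-iron libraries. Its level is uncertain, since 39.3% of its longest coding transcript matches the pseudogene Atp6v0c-ps2 at 95% identity or more. Atp6v0d2, the d isoform known from osteoclasts and macrophages, had 3, 3 and 0 reads in high-iron libraries and none in control-iron libraries. It was not tested, and no fold is given because no library exceeded the 3-read floor.

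In the V1 sector, Atp6v1c1, which links the sectors and controls their assembly, was at 106, 104 and 115 CPM in high-iron libraries and at 80.4, 77.4 and 62.2 CPM in control-iron libraries. Its groups were well separated, and it had the highest log2 fold change of the pump, 0.57 ± 0.14 (SE, limma adjusted p = 0.11, DESeq2 adjusted p = 0.016). Atp6v1a, the catalytic subunit that splits ATP, was at 149, 129 and 147 CPM in high-iron and at 144, 137 and 132 CPM in control-iron libraries, a log2 fold change of 0.04 ± 0.12. Atp6v1b2, its partner in the catalytic ring, was at 153, 132 and 143 CPM in high-iron and at 128, 123 and 100.3 CPM in control-iron libraries, a log2 fold change of 0.29 ± 0.14 (adjusted p = 0.44). The 5 other V1 genes, Atp6v1d and Atp6v1f of the central stalk, Atp6v1e1 and Atp6v1g1 of the peripheral stalks and the regulatory Atp6v1h, overlapped between the groups, with log2 fold changes from -0.27 to 0.19.

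**Figure D5:**
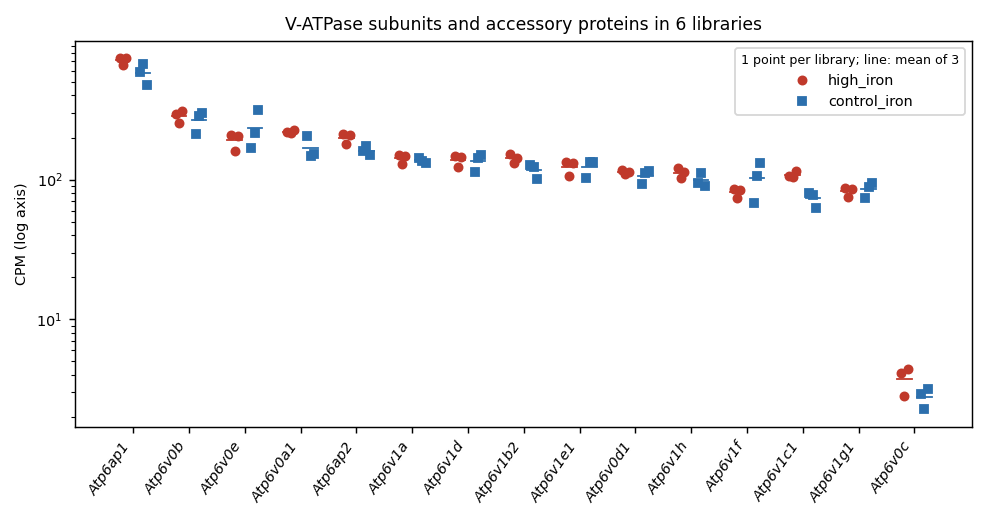
CPM (log axis) of 15 V-ATPase genes with reads in all 6 libraries, ordered by mean level, with 1 point per library and a line at the mean of 3. Groups are apart for Atp6v0a1, Atp6ap2, Atp6v1b2 and Atp6v1c1 and overlap for the other 11; control-iron libraries spread widely for Atp6v0e and Atp6v1f.

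The accessory proteins, which take part in assembly of the pump, were alike in direction. Atp6ap1 was at 738, 664 and 737 CPM in high-iron libraries and at 589, 671 and 478 CPM in control-iron libraries, with 1 crossing between control-iron replicate 2 and high-iron replicate 2. Atp6ap2, also known as the prorenin receptor, was at 210, 180 and 209 CPM in high-iron and at 159, 175 and 150 CPM in control-iron libraries, without overlap. Both were 0.31 higher on the log2 scale (limma adjusted p = 0.45 for Atp6ap1 and 0.38 for Atp6ap2). Per length, Atp6ap1 was the most abundant of the 16 genes at 227 ± 13.6 RPKM in high-iron and 185 ± 30.8 RPKM in control-iron libraries (SD, n = 3 each). Next came Atp6v0b at 153 ± 15.4 and 143 ± 25.2 RPKM in the high-iron and control-iron groups. By the lengths in the expression table, Atp6v1a was the lowest gene apart from Atp6v0c and Atp6v0d2, at 18.6 ± 1.46 and 18.1 ± 0.75 RPKM.

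V-ATPase genes with a short length in the expression table were mostly level or lower in high-iron libraries, as was the longer Atp6v0e. These lengths differ from M21 for several genes. Atp6v1h has 1962 bases against 9746 in M21, Atp6v1d 1394 against 4602 and Atp6v1e1 1194 against 4110. In the longer set, Atp6v1c1 has 2084 against 5601. A grouping by M21 lengths was not made. The 7 tested genes under 2000 bases had a median log2 fold change of 0.04, and 4 of them were highest of all libraries in control-iron replicate 3. The 8 genes of 2000 bases or more had a median of 0.31. Across the 15 genes, which share libraries and depth, Spearman's rho between gene length and log2 fold change was 0.53; it was -0.21 across the 15 hydrolases and 0.06 across all 12980 genes tested. Length also went with single libraries: over all genes tested, rho between length and a library's deviation from the 6-library mean was 0.27 in control-iron replicate 1 and -0.28 in control-iron replicate 2. After a smooth curve of length was taken out of each library, the class medians were 0.43 for the hydrolases, 0.43 for the membrane proteins and 0.13 for the V-ATPase genes.

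The rest of the pathway was read from 6 lists of genes outside the 43. By limma at an adjusted p under 0.05, 0.832% of all genes tested rose. Of 32 other hydrolases, 29 had a log2 fold change above 0, where 49.5% of all genes tested did, with a median of 0.27. An unadjusted limma p under 0.05 was found for 14, all higher, against 7.3% of all genes tested. All high-iron libraries lay above all control-iron libraries for 16, against 9.46%, and below for none. DESeq2 called 2 higher (2.53% of all genes) and edgeR 1 (0.763%). At the adjusted limma threshold 1 rose. That gene was Ctsc, cathepsin C, the activator of serine proteases in immune cells, at 23.3, 12.4 and 9.23 CPM in high-iron libraries and at 2.60, 4.74 and 3.02 CPM in control-iron libraries (log2 fold change 1.77 ± 0.33 SE, adjusted p = 0.041). Leaving out any 1 of the 6 libraries ended the call, and the adjusted p reached 0.15 over all alternatives. High-iron replicate 1 was the highest library for Ctsc, as for the macrophage marker sum.

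Of 26 other membrane proteins, none passed by limma or edgeR, 7 had an unadjusted p under 0.05, DESeq2 called 2, and the median log2 fold change was 0.21. Over all genes tested, 12.1% had an unadjusted limma p under 0.05 and DESeq2 called 3.27%. The smallest p-values were those of Laptm5, a lysosomal membrane protein of blood cells (1.56 ± 0.32 SE, adjusted p = 0.055), and Mfsd1, a transporter of the lysosomal membrane (0.55 ± 0.13, adjusted p = 0.092). Of 14 other tested genes of V-ATPase subunits, assembly factors and partners, none passed by limma, edgeR or DESeq2 and 4 had an unadjusted p under 0.05. Rogdi and Wdr7, both partners of the complex that reassembles the pump, had the smallest p-values, with log2 fold changes of 0.51 and 0.43 (adjusted p = 0.23 and 0.31). The median of these 14 genes was 0.22.

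Among all genes tested, DESeq2 called 3.27% and an unadjusted limma p under 0.05 was found for 12.1%. The unadjusted counts of the sorting and autophagy lists were near this last share. Of 17 genes of hydrolase sorting, none passed by limma, edgeR or DESeq2 and 2 had an unadjusted p under 0.05, with a median log2 fold change of 0.15. These 2 were Sort1, sortilin, at 0.68 ± 0.19 (SE, adjusted p = 0.17), and Gnptg, part of the enzyme that makes the mannose 6-phosphate tag, at 0.48 ± 0.18 (adjusted p = 0.32). Of 19 tested genes of TFEB control and mTORC1, none passed by limma, edgeR or DESeq2 and 3 had an unadjusted p under 0.05, with a median of 0.02. Rragc, a Rag GTPase, and Tfec, a relative of TFEB, had the smallest p-values, with log2 fold changes of 0.41 and 0.47 (adjusted p = 0.27 and 0.31). Of 25 autophagy genes, none passed by limma or edgeR, 3 had an unadjusted p under 0.05 and DESeq2 called 1. That gene was Sqstm1, the cargo receptor p62 and a known target of NRF2, at 387, 343 and 399 CPM in high-iron libraries and at 166, 248 and 223 CPM in control-iron libraries. Its log2 fold change was 0.84 ± 0.16 with a limma adjusted p of 0.0503, and Gabarapl1, which builds autophagosome membranes, followed at 0.57 ± 0.17 (adjusted p = 0.19). The median of the autophagy genes was 0.05.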

How the data were processed

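The authors deposited 2 tables for the 6 libraries, and per the submitters' processing notes STAR, HTSeq, edgeR and mm10 were used; their versions and settings were not stated. The first holds a normalized signal that the authors named CPM, scaled to library size. All 114253 values above 0 are whole multiples of the step of their library within 0.001 read (100%), so reads were recovered, and edgeR's TMM factors matched the scaling. The deposited RPKM values equal 1000 × CPM / gene length and add no measurement. Per the labels, RNA from sorted cells went into a low-input cDNA kit, and no batch or date is given.

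Genes with at least 1 CPM in at least 3 of 6 libraries (12980) were tested on log2(CPM + 1) with limma 3.58.1 (R 4.3.3), group as sole term, trend in the variance, two-sided. The threshold was an adjusted p of 0.05. edgeR 4.0.16 (quasi-likelihood; 120 genes called) and DESeq2 1.42.0 (424) were run on recovered reads; the share of all genes called by limma was 1.02% (133). The main form of the limma fit, edgeR and DESeq2 were also run on simulated data, and the other settings were not. Replicates are biological per the labels. Gene positions came from GENCODE M21 (GRCm38) and near-identical copies from BLAST+ 2.17.0. All 43 genes may be named; of other lists, genes past the threshold or the 2 with the smallest p, plus sort and macrophage markers; Lyz2 was singled out after its values were seen. Genes and lists were chosen with earlier results of these data known. Floors cover counting error only, while each SE or SD reflects the spread between libraries.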

Additional observations from a re-analysis of the deposited data

How the results depend on the processing

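Over all genes, 133 calls became 34 with no filter on low values, 424 with DESeq2, 402 with the replicate block and 27 to 183 with 1 library left out. Among the 43 genes, 2 calls, both hydrolases, became 1 with a pseudocount of 0.1, 0 with no filter, 1 with edgeR, 9 with DESeq2 (6 hydrolases, 2 membrane proteins, 1 V-ATPase gene), 4 with the correction for gene length, which was chosen after seeing the data (4 hydrolases), and 0 to 3 with 1 library left out. The calls were 0 without high-iron replicate 2 or 3 or control-iron replicate 3. With no filter the number of genes tested rose to 23980. In that fit the SE of Ctsd rose from 0.18 to 0.23, while that of Hexa stayed at 0.16. The causes of these changes in calls were not tested. Membrane proteins and V-ATPase genes had 0 calls in all other settings. The 3 class medians moved by less than the spread between replicates in every setting, and no called value changed sign. For the V-ATPase genes this spread, 0.12, was larger than the median itself, 0.11 in the main fit. A loss of their difference would therefore also have stayed within it. The labels do not say whether the numbers pair the libraries. Deviations of same-numbered libraries correlated at 0.13, 0.32 and 0.06, and those of differently numbered libraries at -0.39 to 0.20. These few correlations do not settle whether libraries were paired. With the replicate block 3 of the 43 genes were called instead of 2, Ctss (adjusted p = 0.0033) among them. Depth limits Gpnmb and Atp6v0d2, which lay at or under 3 reads.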
